A study of Homo sapiens with 48 samples.

Results

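The ATG8 family of autophagy genes was examined in 8 human cancer cell lines treated with the proteasome inhibitor carfilzomib. The genes were the 6 rows of the deposited count matrix, of 33892 in all, that carry the symbols GABARAPL1, GABARAP, GABARAPL2, MAP1LC3A, MAP1LC3B and MAP1LC3B2. Each symbol was found in 1 row.

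ATG8 proteins are small ubiquitin-like proteins that ATG4 proteases trim and that ATG7 and ATG3 join to phosphatidylethanolamine on the growing autophagosome membrane. They fall into the GABARAP and the LC3 branches. On the membrane they hold cargo receptors and adaptors that carry a short LC3-interacting motif, and lipidated LC3B is the usual marker of autophagosomes. Autophagy and the proteasome are the main routes by which cells degrade proteins, and the proteasome is the target of carfilzomib, a drug used in multiple myeloma.

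Stranded total RNA libraries had been sequenced from RKO and DLD-1 (colon cancer), H-23 and H-1299 (lung cancer), PANC-1 and CAPAN-2 (pancreatic cancer) and H-929 and RPMI (multiple myeloma). Each line received either DMSO, the solvent control, or carfilzomib for 24 h. The drug was dosed line by line at its IC50 against the proteasome, so doses were matched on proteasome activity and not on concentration, and the concentrations are not given in the sources used here. The labels call the 3 libraries of each of the 16 groups biological replicates. Every line is a cancer line that cannot stand for its tissue. The 48 libraries held 9116329 to 64369098 counts. In both myeloma lines all 6 plasma cell markers checked (SDC1, TNFRSF17, IRF4, PRDM1, MZB1 and CD38) had mean levels above 1 CPM (counts per 1000000 counts of the library), against 2 or 3 of the 6 in the carcinoma lines. All 5 epithelial markers (EPCAM, KRT8, KRT18, KRT19 and CDH1) passed that level in DLD-1, H-23, PANC-1 and CAPAN-2. Only 3 did in RKO and 2 in H-1299, while 2 did in H-929 and 4 in RPMI.

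The members lie on chromosomes 12, 16, 17 and 20. In GENCODE 29 on GRCh38, GABARAPL1 (ENSG00000139112) lies at chr12:10212458-10223130 on the plus strand and GABARAP (ENSG00000170296) at chr17:7240014-7242770 on the minus strand. GABARAPL2 (ENSG00000034713) lies at chr16:75566351-75577881, MAP1LC3A (ENSG00000101460) at chr20:34546854-34560345, MAP1LC3B (ENSG00000140941) at chr16:87383995-87404779 and MAP1LC3B2 (ENSG00000258102) at chr12:116548105-116576448, all on the plus strand. The coding sequences ran from 351 to 375 bases. GABARAPL1 and GABARAP were identical at 76.6% of aligned coding bases, whereas GABARAPL1 and MAP1LC3B were identical at 52.7%.

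MAP1LC3B and MAP1LC3B2 were the closest pair, at 99.5% identity, and this bears on how far their counts can be separated. Their coding sequences of 375 bases differed at 2 bases, and the longest run without a difference was 307 bases. The stretches around both differences are shown from the GENCODE 29 transcripts, 5′ to 3′, with the differing base in capitals. The first pair covers coding bases 10 to 50 and the second pair coding bases 318 to 358, counted from 1 at the start codon.
MAP1LC3B, coding base 30: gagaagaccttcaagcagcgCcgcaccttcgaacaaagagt
MAP1LC3B2, coding base 30: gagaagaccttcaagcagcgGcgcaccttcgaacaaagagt
MAP1LC3B, coding base 338: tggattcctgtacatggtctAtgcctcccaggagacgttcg
MAP1LC3B2, coding base 338: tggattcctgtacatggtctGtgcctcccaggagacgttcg
A read from the shared run fits both genes, and how such reads were assigned is not given in the sources used here. MAP1LC3B2 values are therefore uncertain. MAP1LC3B2 took between 1.24% and 10.6% of the counts of this pair, with a median of 3.75% over the 48 libraries.

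The start regions were searched because some members moved together and others did not. RefSeq sequences on GRCh38.p14 were at hand for 5 of the 6 members. In the 250 bases before each start, 6 motifs were searched on both strands, and the 30 bases around each match are shown on the gene's strand, with the match in capitals.
GABARAPL1, chr12:10212836-10212865, plus strand: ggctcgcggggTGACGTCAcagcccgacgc
MAP1LC3B, chr16:87392280-87392309, plus strand: gcgagtcaccTGACCAGGCtgcgggctgag
MAP1LC3B2, chr12:116559334-116559363, plus strand: ctctccgggagGAAGATTCctttccatttt
GABARAP, chr17:7242554-7242583, minus strand: gctaatggcgTGAGGGGGCcggtcagttgg
GABARAPL2, chr16:75566149-75566178, plus strand: accagttccccGAACATTCctgcgagcaat
GABARAPL1 held TGACGTCA, the cyclic AMP response element bound by CREB and ATF factors, and its match began 30 bases before the start. This motif was found in 1.65% of 35116 promoters of the same length. TGANNNNGC, a loose form of the core of the antioxidant response element, was found in MAP1LC3B and GABARAP and in 35.2% of all promoters. GAANNTTC, an inverted pair of heat shock units, was found in MAP1LC3B2 and GABARAPL2 and in 5.78% of all promoters. CACGTG (6.34% of all promoters), GTAAACA (2.98%) and TGATGNAA (3.14%) had no match in these 5 windows. Each of these 5 windows held 1 match in all. For GABARAPL1, GABARAP and MAP1LC3B the shown bases also lie within the first exon of a longer GENCODE 29 transcript. The shown bases of MAP1LC3B2 lie within the span of its gene given above. A match is a run of letters and no evidence of binding.

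In DMSO the lines differed widely in GABARAPL1 and far less in GABARAP and GABARAPL2. Levels across lines are given in CPM with TMM factors on 1 scale for all 48 libraries. GABARAPL1 reached 197 ± 3.71 (SD, n = 3 here and in all groups) CPM in H-23 and 4.27 ± 0.482 in RPMI, a 46.3-fold range. The order was H-23, DLD-1 (146 ± 6.03), H-1299 (49.2 ± 6.20), PANC-1 (28.99 ± 1.76), CAPAN-2 (24.7 ± 1.06), H-929 (15.1 ± 2.72), RKO (7.50 ± 0.429) and RPMI. Every neighbour in this order differed, with CAPAN-2 and PANC-1 the closest at 0.23 ± 0.079 (log2, SE; edgeR adjusted p = 0.0102). All 28 pairs of lines differed in GABARAPL1, against 63.2% to 75.2% of all genes per pair of lines (69.8% over all pairs together).

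GABARAP, the founding member of its branch, spanned only 2.55-fold, from 81.4 ± 7.01 CPM in RKO to 31.9 ± 3.53 in CAPAN-2. H-1299, DLD-1, RPMI, PANC-1 and H-23 lay between 59.2 and 45.97, and no neighbours within these 5 passed the test against each other. Some lines further apart in the order did differ. H-23 minus H-1299 was -0.37 ± 0.077 (log2, SE; edgeR adjusted p = 4.9e-05). H-23 was also below DLD-1 (0.0032) and RPMI (0.0061), and PANC-1 below H-1299 (0.0037). GABARAPL2, also known as GATE-16, spanned 2.73-fold. It was highest in RPMI (70.9 ± 1.59) and H-1299 (68.4 ± 4.31), which did not differ beyond their spread, and lowest in H-23 (25.98 ± 1.06). RKO, H-929, DLD-1 and PANC-1 held 31.998 to 34.4 CPM and no neighbours within these 4 passed the test against each other. Thus H-23 had the highest GABARAPL1 and the lowest GABARAPL2. Of the 28 pairs of lines, 22 differed in GABARAP and 21 in GABARAPL2, against 69.8% of all genes over all pairs together.

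MAP1LC3B, the LC3 form most used as an autophagosome marker, was highest in RKO at 109 ± 9.15 CPM, and H-929 came next at 51.7 ± 2.91. H-23 (17.9 ± 2.12), RPMI (16.98 ± 3.37) and CAPAN-2 (15.8 ± 0.833) were lowest, and neither of the first 2 passed the test against the next. MAP1LC3B2 was also highest in RKO (5.82 ± 1.29) and lowest in CAPAN-2 (0.367 ± 0.173). MAP1LC3A, the remaining LC3 member, was present at 11.6 ± 0.928 in H-1299, 11.1 ± 0.378 in PANC-1, 9.09 ± 0.496 in H-23 and 3.58 ± 0.537 in DLD-1. In RKO, H-929 and RPMI it had 1 to 14 counts per library, and CAPAN-2 had 20 to 40. The range of MAP1LC3A over the lines was 56.5-fold, wider than that of GABARAPL1, but its low end rests on these few counts. The ranges were 15.9-fold for MAP1LC3B2 and 6.88-fold for MAP1LC3B. The baseline difference among the 8 lines passed the test for all 6 members, the largest adjusted p being 1.14e-14 for MAP1LC3B2, as it did for 97.6% of all genes.

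**Figure D1:**
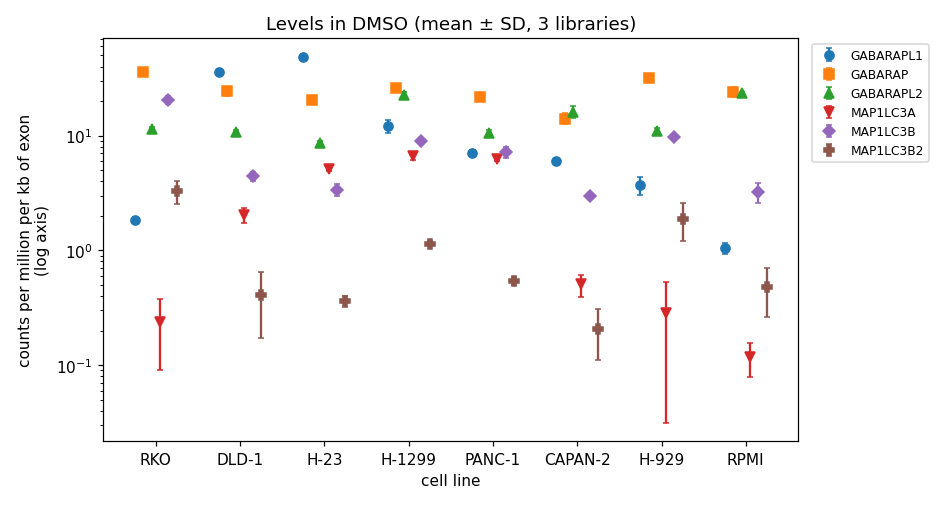
Level of the 6 genes in DMSO, in CPM per kb of exon on a log axis, by cell line (points, mean of 3 libraries; bars, SD). GABARAPL1 lies between 1.04 in RPMI and 48.3 in H-23, while GABARAP stays between 14.1 and 35.9.

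Levels of different genes were set side by side per kb of exon. In RKO, GABARAP led with 35.9 CPM per kb, followed by MAP1LC3B with 20.5, and GABARAPL1 had 1.84. In H-23, GABARAPL1 led with 48.3 and MAP1LC3B had 3.36. RKO also expressed MAP1LC3C, an LC3 gene outside the 6 members that binds the receptor CALCOCO2 in xenophagy, at 146 ± 10.8 CPM per kb, above every member in that line. Its RKO libraries held 1879 to 4401 counts. In the 12 libraries of DLD-1 and CAPAN-2 no count was found, and the other 30 libraries held at most 19 counts. GABARAPL3, a close relative of GABARAPL1, was not tested in any line.

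Carfilzomib changed the members most through GABARAPL1, MAP1LC3B and MAP1LC3B2, which were called higher in the same 6 lines: H-23, H-1299, PANC-1, CAPAN-2, H-929 and RPMI. In the colon lines no member passed the test. Of the members tested, 0 of 5 were called higher and 0 of 5 lower in RKO (3.62% and 5.28% of all genes tested there), and 0 of 6 and 0 of 6 in DLD-1 (10.9% and 12.1%). H-23 had 4 higher and 0 lower (17.7% and 16.2% of all genes), and H-1299 had 3 and 0 (29.8% and 31.3%). PANC-1 had 6 and 0 (20.5% and 18.2%), and CAPAN-2 had 4 and 0 (25.7% and 26.7%). H-929 had 3 higher and 1 lower (26.4% and 26.2%), and RPMI had 3 higher and 2 lower of 5 tested (31.3% and 32.2%). The zero counts in RKO and DLD-1 were not fixed: 1 member, GABARAPL1, was called higher in RKO when all 48 libraries were fitted together, and 1, MAP1LC3B, was called lower there without a filter on low counts. In the fit of all 48 libraries the counts called higher were 2 in PANC-1 and 2 in H-23, GABARAPL1 and MAP1LC3B in both lines. Separation of the groups gave a like picture. All carfilzomib libraries lay above all DMSO libraries for 1 of 5 members in RKO and all lay below for 1 of 5 (13.9% and 14.3% of all genes tested), and for 1 and 0 of 6 in DLD-1 (19.4% and 20.4%). H-23 had 5 members above and 0 below (23.3% and 22.4%), H-1299 had 3 above and 0 below (32.2% and 34.1%), and the counts were 6 and 0 in PANC-1 (25.7% and 23.9%) and 4 and 0 in CAPAN-2 (29.2% and 30.2%). They were 3 and 1 in H-929 (30% and 29.5%) and 3 and 2 of 5 in RPMI (34% and 34.2%). A call means an adjusted p under 0.05 in edgeR's quasi-likelihood test fitted on the 6 libraries of the line. In bulk RNA a smaller number of cells expressing a gene and less of its RNA per cell cannot be told apart.

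**Figure D2:**
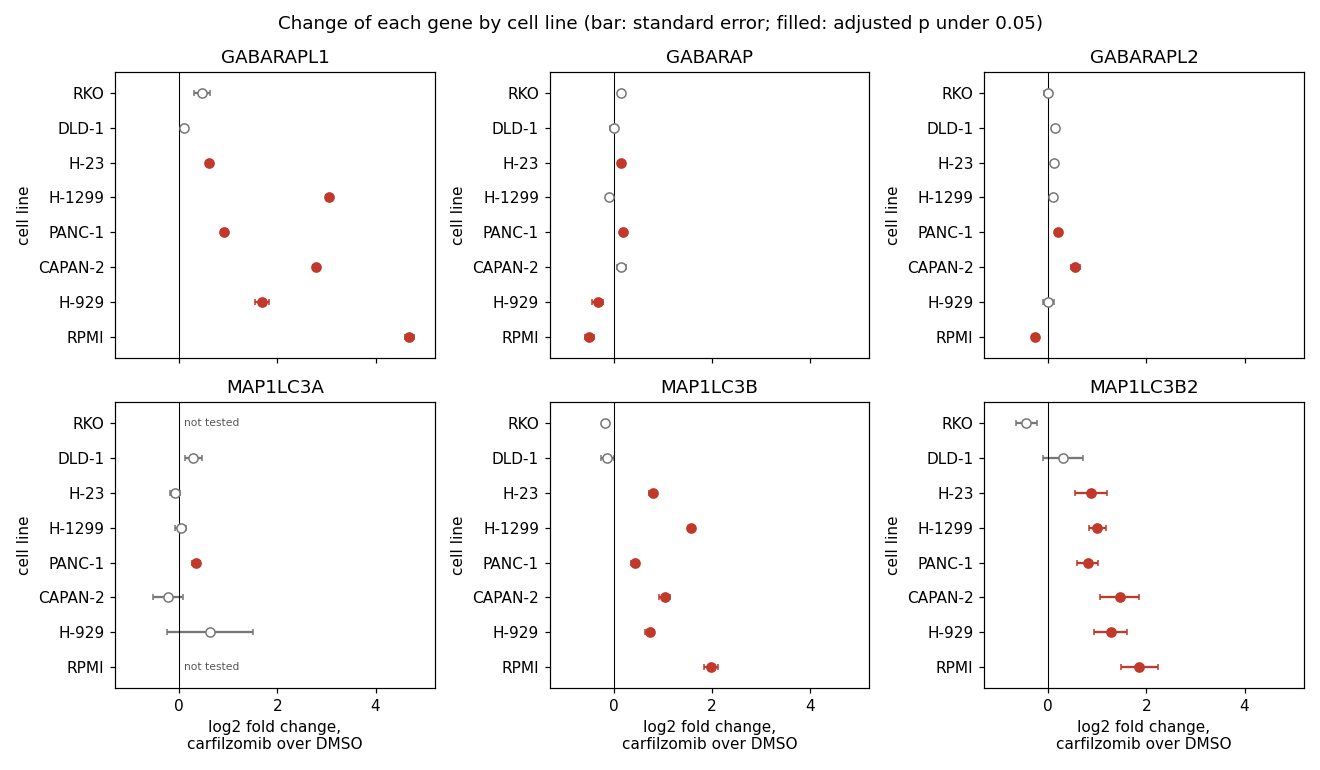
Log2 fold change of each gene, carfilzomib over DMSO, in the 8 lines (points; bars, SE of the edgeR fit; filled where the adjusted p was under 0.05). GABARAPL1 spans 0.10 in DLD-1 to 4.69 in RPMI, and GABARAP stays between -0.49 and 0.20.

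GABARAPL1 was the member with the largest rise in H-1299, PANC-1, CAPAN-2, H-929 and RPMI. Values here and below are CPM with the TMM factors of the line's own fit. In RPMI, the DMSO libraries held 3.72, 4.29 and 3.37 and the carfilzomib libraries 100.1, 94.99 and 97.0. The groups lay far apart, with a 25.7-fold ratio of the means and a log2 fold change of 4.69 ± 0.086 (SE; edgeR adjusted p = 3.6e-13). In H-1299, 49.9, 39.5 and 46.5 in DMSO stood against 378, 373 and 379 with carfilzomib. The ratio of the means was 8.32 (log2 fold change 3.05 ± 0.070, edgeR adjusted p = 1.9e-11), and the treated libraries agreed closely among themselves.

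CAPAN-2 showed the next largest rise of GABARAPL1. Its DMSO libraries held 22.3, 22.4 and 24.0 CPM and its carfilzomib libraries 160.0, 163 and 151, without overlap (log2 fold change 2.79 ± 0.062, edgeR adjusted p = 1.5e-12). In H-929, 16.8, 11.98 and 13.3 rose to 44.1, 47.9 and 43.7 (1.69 ± 0.14, edgeR adjusted p = 2.6e-07). In PANC-1, 27.4, 29.8 and 30.5 rose to 58.4, 51.2 and 55.6 (0.91 ± 0.060, edgeR adjusted p = 1.6e-07). H-23, the line with the highest baseline, had the smallest rise that passed: 224, 221 and 212 in DMSO against 326, 355 and 326 (0.62 ± 0.040, edgeR adjusted p = 7.0e-08).

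In the colon lines GABARAPL1 was not called in the line's own fit, and no test set these lines against the others. In RKO, GABARAPL1 was at 8.41, 7.98 and 8.68 CPM in DMSO and at 10.8, 10.1 and 13.7 with carfilzomib. The groups did not overlap, as was so in this direction for 13.9% of all genes tested in RKO, but the log2 fold change of 0.46 ± 0.17 missed the threshold (edgeR adjusted p = 0.109). In the fit of all 48 libraries this change of 0.46 was called (edgeR adjusted p = 0.0152). In DLD-1, 144, 147 and 158 stood against 164, 155 and 160.4. These groups overlapped (0.10 ± 0.049, edgeR adjusted p = 0.194).

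**Figure D3:**
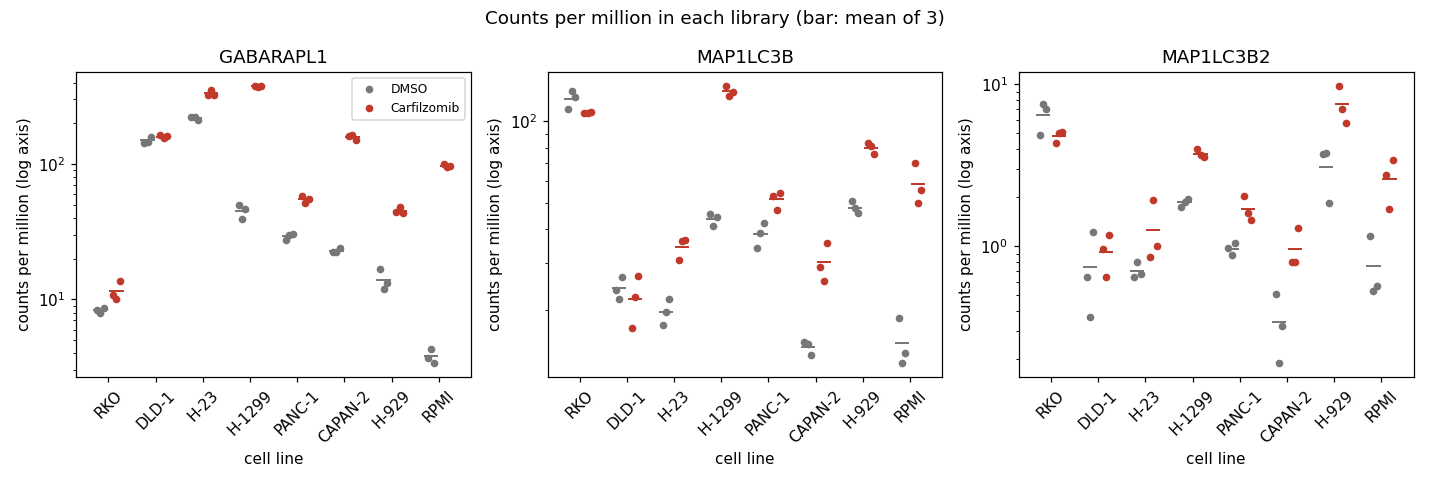
CPM of GABARAPL1, MAP1LC3B and MAP1LC3B2 in each library on a log axis (points, grey for DMSO and red for carfilzomib; bars, mean of 3), scaled within each line. In RPMI, GABARAPL1 moves from 3.37 to 4.29 in DMSO up to 94.99 to 100.1 with carfilzomib, while in DLD-1 the groups overlap.

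MAP1LC3B rose in the same 6 lines. In RPMI, 18.7, 12.7 and 13.9 CPM in DMSO stood against 70.1, 49.8 and 55.8 with carfilzomib (log2 fold change 1.98 ± 0.14, edgeR adjusted p = 3.7e-08). In H-1299, 45.3, 41.2 and 44.3 stood against 136, 124 and 129 (1.57 ± 0.053, edgeR adjusted p = 2.1e-10). In CAPAN-2, 15.2, 14.97 and 13.7 stood against 29.1, 25.7 and 35.4 (1.04 ± 0.10, edgeR adjusted p = 8.9e-07). No treated library of these lines fell within the range of its controls.

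The remaining rises of MAP1LC3B were below 1 on the log2 scale. H-23 moved from 17.7, 19.7 and 21.99 CPM to 30.8, 35.99 and 36.3 (0.80 ± 0.083, edgeR adjusted p = 5.4e-06). H-929 moved from 50.6, 47.7 and 45.7 to 83.0, 81.4 and 75.7 (0.74 ± 0.093, edgeR adjusted p = 1.4e-05). PANC-1 moved from 33.9, 38.5 and 42.3 to 53.0, 47.2 and 54.4 (0.43 ± 0.075, edgeR adjusted p = 0.00055). Again the groups of each line were separate.

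In RKO, which had the highest baseline of MAP1LC3B, the direction was the opposite. The DMSO libraries held 111, 130.2 and 123 CPM and the carfilzomib libraries 107, 107 and 108. All treated libraries lay below all controls, as was so for 14.3% of the genes tested in RKO, and the log2 fold change of -0.17 ± 0.057 missed the threshold (edgeR adjusted p = 0.0842). In DLD-1, 23.9, 21.98 and 26.5 stood against 17.2, 22.3 and 26.7, which overlapped (-0.13 ± 0.13, edgeR adjusted p = 0.536).

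FBXO31, an F-box gene on the other strand, overlaps MAP1LC3B, and whether the counting used strand is not given in the sources used here. FBXO31 was called higher in 3 of the 6 lines in which MAP1LC3B rose, by 0.26 on the log2 scale in H-23, 0.19 in PANC-1 and 0.18 in H-1299 (edgeR adjusted p = 0.0029, 0.0067 and 0.0287). In RPMI, H-929 and CAPAN-2 its values were 0.04, -0.02 and 0.03, and it did not pass the test (edgeR adjusted p = 0.731, 0.929 and 0.803). In DMSO FBXO31 was highest in RKO, the line with the highest MAP1LC3B, at 83.0 CPM on the line's own scale. The other lines held 25.3 to 50.3. The part of FBXO31 in the counts of MAP1LC3B was not tested, at baseline or for the change.

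MAP1LC3B2 was called higher in the 6 lines in which its near-identical partner rose. Its libraries held only 6 to 154 counts. In RPMI, 1.16, 0.531 and 0.570 CPM stood against 2.76, 1.69 and 3.39 (log2 fold change 1.86 ± 0.37, edgeR adjusted p = 0.00065). In CAPAN-2, 0.509, 0.189 and 0.321 stood against 0.801, 0.795 and 1.299 (1.46 ± 0.40, edgeR adjusted p = 0.0067). In H-929, 3.71, 3.74 and 1.84 stood against 9.80, 7.03 and 5.80 (1.28 ± 0.33, edgeR adjusted p = 0.0052). None of these groups overlapped.

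H-1299 gave a log2 fold change of 1.00 ± 0.18 for MAP1LC3B2 (edgeR adjusted p = 0.00027) and PANC-1 one of 0.81 ± 0.21 (edgeR adjusted p = 0.0089). H-23 passed only narrowly: 0.641, 0.801 and 0.670 CPM stood against 0.860, 1.92 and 0.997 (0.87 ± 0.32, edgeR adjusted p = 0.04998). The second carfilzomib library of H-23 stood well above the other 2, and without it the value was 0.42 (edgeR adjusted p = 0.375). In RKO and DLD-1 the groups overlapped. The share of MAP1LC3B2 in the counts of the pair was 4.604 ± 1.08% in DMSO and 4.26 ± 1.29% with carfilzomib in RPMI, and 4.11 ± 0.348% and 2.81 ± 0.0935% in H-1299. It was 5.99 ± 1.85% and 8.54 ± 1.795% in H-929, 2.48 ± 0.278% and 3.20 ± 0.559% in PANC-1, and 2.25 ± 0.996% and 3.07 ± 0.433% in CAPAN-2. In H-23 it was 3.45 ± 0.478% and 3.48 ± 1.36%, in RKO 5.03 ± 0.708% and 4.25 ± 0.323%, and in DLD-1 2.89 ± 1.42% and 4.099 ± 1.24%.

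GABARAP moved in both directions and by less. It was called lower in both myeloma lines. In RPMI, 54.5, 46.8 and 44.2 CPM in DMSO stood against 39.3, 32.2 and 31.6 with carfilzomib (log2 fold change -0.49 ± 0.096, edgeR adjusted p = 0.00050). In H-929, 66.4, 65.8 and 67.2 stood against 50.5, 59.99 and 48.4 (-0.33 ± 0.10, edgeR adjusted p = 0.0149). Every treated myeloma library was below every control of its line.

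In PANC-1, GABARAP was called higher, from 49.7, 49.5 and 51.0 to 58.0, 55.8 and 58.7 CPM (0.20 ± 0.041, edgeR adjusted p = 0.0018). In H-23 it was called higher by 0.15 ± 0.043 (edgeR adjusted p = 0.0165), a call that ended when either the first or the third DMSO library or the second or the third carfilzomib library was left out (adjusted p between 0.0501 and 0.117). It was not called in RKO (0.15), DLD-1 (0.0016), H-1299 (-0.10) or CAPAN-2 (0.16). In H-1299 it was called lower without the second DMSO library (-0.14, edgeR adjusted p = 0.0338), and in CAPAN-2 higher without the second DMSO library (0.23, edgeR adjusted p = 0.0496).

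GABARAPL2 was called higher in the pancreatic lines and lower in RPMI. In CAPAN-2, 51.2, 43.97 and 40.3 CPM in DMSO stood against 61.8, 65.4 and 72.1 with carfilzomib (log2 fold change 0.56 ± 0.084, edgeR adjusted p = 6.3e-05). In PANC-1, 30.1, 33.7 and 33.04 stood against 37.8, 36.3 and 36.7 (0.19 ± 0.053, edgeR adjusted p = 0.0110), a call that ended without the first DMSO library (0.14, edgeR adjusted p = 0.0553). In RPMI, 63.4, 62.2 and 63.2 stood against 54.3, 53.5 and 49.8 (-0.26 ± 0.057, edgeR adjusted p = 0.0011).

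The groups of GABARAPL2 were separate in all 3 of these lines. They were also separate in DLD-1 (0.14, edgeR adjusted p = 0.0970) and H-23 (0.11, edgeR adjusted p = 0.138), where the test was not passed and where 19.4% and 23.3% of all genes lay apart with carfilzomib higher. In H-929 the direction rested on the scaling, at 0.0035 in the fit of that line and -0.16 in the fit of all 48 libraries. On the latter scale carfilzomib values of H-929 lay lower by 0.16 (log2) against DMSO for every gene, the only line in which the scales differed by more than 0.1.

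MAP1LC3A passed the test only in PANC-1, where 11.5, 11.3 and 10.7 CPM in DMSO stood against 14.02, 13.6 and 14.8 with carfilzomib (log2 fold change 0.34 ± 0.077, edgeR adjusted p = 0.0033). That call was lost in the fit of all 48 libraries (0.33, edgeR adjusted p = 0.477). It was too low to test in RKO and RPMI. In DLD-1 it changed by 0.29 ± 0.17, in H-23 by -0.08 ± 0.099 and in H-1299 by 0.04 ± 0.11, none past the threshold. In H-1299 its sign turned with scaling by library totals.

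MAP1LC3C fell in RKO, the only line in which it was tested. The DMSO libraries held 179, 199 and 199.98 CPM and the carfilzomib libraries 142, 138 and 133. The groups did not overlap, and the log2 fold change was -0.49 ± 0.052 (edgeR adjusted p = 7.0e-05).

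Whether a member changed differently between lines was tested in a fit of all 48 libraries. The 8 changes were unequal for GABARAPL1 (edgeR adjusted p = 1.2e-31), MAP1LC3B (1.7e-15), GABARAPL2 (5.6e-09), GABARAP (1.1e-08) and MAP1LC3B2 (0.0048), and the test was not passed for MAP1LC3A (0.689). Without the third replicate of every group MAP1LC3B2 did not pass either (edgeR adjusted p = 0.186). Of all genes, 67.7% passed this test. Within a tumour type, GABARAPL1 rose more in RPMI than in H-929 by 3.08 ± 0.15 (log2; edgeR adjusted p = 2.1e-21), more in H-1299 than in H-23 by 2.39 ± 0.098 (1.1e-22) and more in CAPAN-2 than in PANC-1 by 1.90 ± 0.11 (2.2e-18). These 3 differences were called in that direction for 21.5%, 13.3% and 13.5% of all genes.

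MAP1LC3B differed in the same direction in the same 3 pairs, by 1.33 ± 0.18 between the myeloma lines (edgeR adjusted p = 2.5e-08), 0.72 ± 0.16 between the lung lines (0.00038) and 0.63 ± 0.17 between the pancreatic lines (0.0032). The pancreatic difference was not called when the third replicate of every group was left out (0.41, edgeR adjusted p = 0.151). Between RKO and DLD-1 no member passed the test of a difference, with GABARAPL1 at 0.37 ± 0.14 (edgeR adjusted p = 0.153), where 1.8% and 2.24% of all genes were called higher and lower.

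Set against the mean of the 6 carcinoma lines, the mean change of the 2 myeloma lines was higher for GABARAPL1 by 1.76 ± 0.080 (edgeR adjusted p = 7.7e-23), for MAP1LC3B by 0.67 ± 0.10 (2.1e-07) and for MAP1LC3B2 by 0.79 ± 0.29 (0.0237). The MAP1LC3B2 difference was not called without the first (0.88, edgeR adjusted p = 0.0700) or the third (0.48, edgeR adjusted p = 0.349) replicate of every group. The mean change of the myeloma lines was lower for GABARAP, a difference of -0.61 ± 0.068 (2.1e-10), and for GABARAPL2, a difference of -0.42 ± 0.062 (1.7e-07). These differences depend on the scale of the fit of 48 libraries. Against the lines' own scales it shifts every log2 change by -0.16 in H-929 and -0.079 in RPMI. In the carcinoma lines the shift lay between -0.070 and 0.018, so the scale moves every difference given here downward. The positive differences are made smaller by it, and the negative ones of GABARAP and GABARAPL2 are made larger in size. Of all genes, 19.1% were called higher and 25.2% lower in this contrast. Its error is the spread between replicates, and 2 myeloma lines cannot stand for the tumour type. In the fits of single lines, which are not the fit of this contrast, the GABARAPL1 changes were 4.69 in RPMI and 1.69 in H-929. Among the carcinoma lines they were 3.05 in H-1299, 2.79 in CAPAN-2, 0.91 in PANC-1 and 0.62 in H-23. Not called in those fits were 0.46 in RKO and 0.10 in DLD-1. The fit of all 48 libraries gave 2.98 in H-1299 and, called there, 0.46 in RKO (edgeR adjusted p = 0.0152).

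Averaged over the 8 lines, the log2 change was 1.75 ± 0.031 for GABARAPL1, 0.74 ± 0.042 for MAP1LC3B and 0.85 ± 0.13 for MAP1LC3B2, all called higher (edgeR adjusted p = 4.8e-38, 6.2e-20 and 1.5e-07). The background was 19.8% of genes called higher and 23.9% lower. With the 8 lines as the units in place of the replicates, none of these averages passed (limma adjusted p = 0.213, 0.242 and 0.195). Nor did any other gene: limma called 0 of 22309 genes with lines as the units, and 3600 had an unadjusted p under 0.05. The averages of GABARAP (-0.07 ± 0.028, edgeR adjusted p = 0.0289) and GABARAPL2 (0.06 ± 0.026, edgeR adjusted p = 0.0434) were small, and both depended on single lines: without RPMI the GABARAP average was -0.0036 (edgeR adjusted p = 0.99994) and without CAPAN-2 the GABARAPL2 average was -0.01 (edgeR adjusted p = 0.981).

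The summed level of the 6 genes per kb of exon rose little in the colon lines and most in H-1299 and CAPAN-2. In H-1299 the sum was 71.3 ± 4.35 CPM per kb in DMSO and 170 ± 2.49 with carfilzomib, a ratio of 2.38. In CAPAN-2 it was 36.9 ± 3.06 and 81.7 ± 2.41, a ratio of 2.21. The ratios were 1.49 in RPMI, 1.36 in H-23, 1.29 in PANC-1, 1.19 in H-929, 1.05 in DLD-1 and 1.02 in RKO. These sums are a description and were not tested.

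Within the sum, GABARAPL1 took a larger share in the treated libraries. In RPMI its share went from 2.00 ± 0.283% to 34.6 ± 1.65%, in H-1299 from 15.5 ± 0.890% to 54.4 ± 0.603% and in CAPAN-2 from 15.3 ± 1.92% to 47.4 ± 3.00%. The GABARAP share went from 46.004% to 21.9% in RPMI, from 33.8% to 13.2% in H-1299 and from 35.3% to 17.8% in CAPAN-2. A share also falls when another member rises. Of these lines, the level of GABARAP was called lower only in RPMI. Its log2 changes of -0.10 in H-1299 and 0.16 in CAPAN-2 were not called. In DLD-1 the GABARAPL1 share was 46.04% in DMSO and 46.9% with carfilzomib.

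Per kb of exon, GABARAPL1 became the leading member in RPMI, H-1299 and CAPAN-2, while GABARAP led in RKO, PANC-1 and H-929 under both treatments. The leading member rested on the length used. Per kb of a single coding transcript, GABARAPL2 led in treated RPMI with 35.2% against 33.4% for GABARAPL1, and in treated PANC-1 with 28.2%. The change of the GABARAPL1 share held with that length, at 38.8 points in H-1299, 30.4 points in CAPAN-2 and 31.5 points in RPMI.

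**Figure D4:**
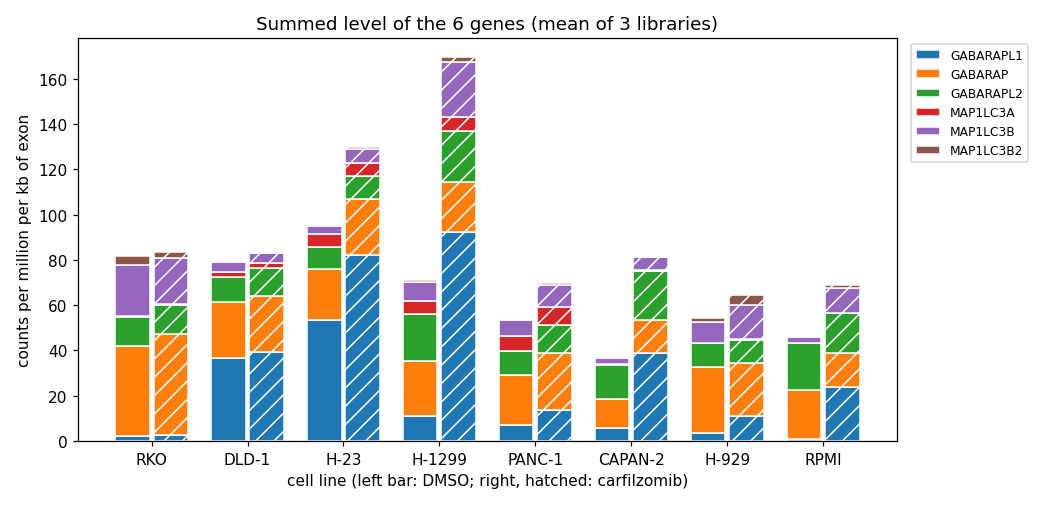
Summed level of the 6 genes in CPM per kb of exon, by cell line (left bar, DMSO; right hatched bar, carfilzomib; colours, genes; mean of 3 libraries). The sum rises from 71.3 to 170 in H-1299, and most of the added height is GABARAPL1.

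Across the 8 lines, the changes of GABARAPL1 and MAP1LC3B followed each other (Pearson r = 0.93 over 8 lines, 0.88 without RPMI), while GABARAPL1 and GABARAP had r = -0.67 (-0.29 without RPMI). MAP1LC3B and MAP1LC3B2, which can share reads, had r = 0.85 (0.78 without RPMI). GABARAP and GABARAPL2 had r = 0.70 (0.44 without RPMI). Both members of a pair come from the same libraries, so these are descriptions. Of the 11622 genes tested in every line, MAP1LC3B ranked 96 in likeness to GABARAPL1.

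**Figure D5:**
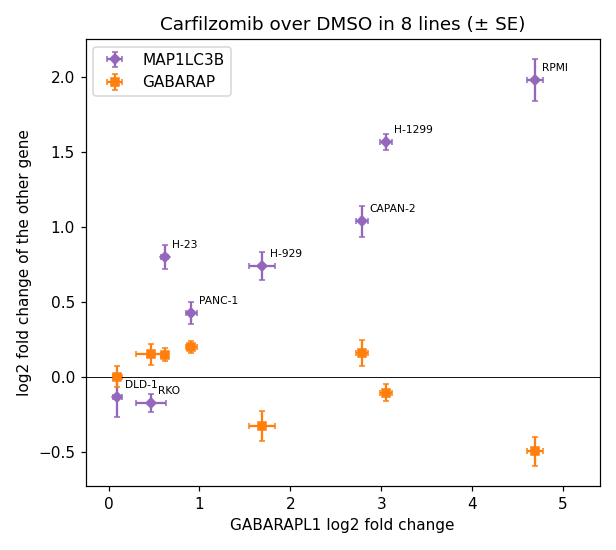
Log2 fold change of MAP1LC3B (diamonds) and GABARAP (squares) against that of GABARAPL1 in the 8 lines (bars, SE; line names beside the MAP1LC3B points). MAP1LC3B goes up with GABARAPL1 from RKO and DLD-1 to RPMI, and GABARAP is lowest in RPMI.

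By the same measure the genes most like GABARAPL1 were KCMF1, an E3 ubiquitin ligase (r = 0.988, with changes of -0.02 in RKO and DLD-1, 0.81 in H-1299 and 1.26 in RPMI), MBD4, a DNA glycosylase (0.986), and EXOC6B, an exocyst subunit (0.986). KCMF1 was also among the 3 genes most like MAP1LC3B (0.971), after RPA2, a subunit of the single-stranded DNA binding protein RPA (0.972), and SLMAP (0.972). Those most like MAP1LC3B2 were TPT1 (0.964), SRXN1, which reduces oxidised peroxiredoxins (0.956), and AKIRIN2, which brings proteasomes into the nucleus (0.947). GABARAP was most like PEBP1, a Raf kinase inhibitor (0.991), GCSHP5 (0.987) and MCCC2 (0.987). GABARAPL2 was most like SF3B6, a splicing factor subunit (0.986), PINK1, the mitophagy kinase (0.975), and BTF3 (0.967).

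Among the 11 genes that trim ATG8 proteins and join them to lipid, 10 were tested. Of these, 5 were called higher and 4 lower on average over the lines (19.8% and 23.9% of all genes). The median average change was 0.02, as it was over all genes. ATG4A, a protease that trims and releases ATG8 proteins, rose most (0.97 ± 0.031, edgeR adjusted p = 3.1e-29), and was called in 6 lines. Its changes were 2.27 in CAPAN-2, 1.62 in H-1299, 1.31 in PANC-1, 0.94 in H-23, 0.85 in DLD-1 and 0.80 in RPMI, but 0.07 in H-929 (edgeR adjusted p = 0.662) and 0.23 in RKO (edgeR adjusted p = 0.527). ATG4D, another of these proteases, rose by 0.40 ± 0.037. The largest falls were those of ATG10, the E2-like enzyme for ATG12 (-0.32 ± 0.051), and ATG16L2 (-0.23 ± 0.036). By line, ATG16L2 was called lower in 4 lines but higher in RKO (0.24) and RPMI (0.71).

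Of 16 cargo receptors and adaptors that bind ATG8 proteins, 8 were called higher and 4 lower on average (median 0.10). Of all genes, 19.8% were called higher and 23.9% lower in this average. SQSTM1, the receptor p62, averaged 1.95 ± 0.20, but it is uncertain because its identifier has 2 rows in the matrix, as PLEKHM1 has 3 (not called). The next was TAX1BP1, a receptor for ubiquitinated cargo, at 0.55 ± 0.023 (edgeR adjusted p = 1.0e-24), with 1.38 in H-1299, 1.24 in RPMI and 1.09 in CAPAN-2 and no call in RKO (-0.04), DLD-1 (-0.10) or H-929 (0.07). The largest falls were TEX264 (-0.48 ± 0.028) and RETREG1 (-0.29 ± 0.077), both receptors for the endoplasmic reticulum, and TEX264 was called lower in 6 lines.

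Of 10 transcription factors known to act on autophagy genes, 9 were tested, with 6 called higher and 1 lower on average (median 0.18). The shares of all genes in this average were 19.8% higher and 23.9% lower. DDIT3, which encodes the stress factor CHOP, averaged 0.91 ± 0.033 (edgeR adjusted p = 4.6e-27). It was called higher in 6 lines, the same 6 as GABARAPL1, by 3.28 in RPMI, 3.24 in H-929 and 0.32 in H-1299, and lower in DLD-1 (-0.69, edgeR adjusted p = 7.5e-05). FOXO4 averaged 0.41 ± 0.057. FOXO3 averaged -0.08 ± 0.018. By line it was called lower only in RPMI (-0.66), and it was called higher in H-23 (0.18) and H-1299 (0.27). ATF4 was not called on average (-0.05 ± 0.019, edgeR adjusted p = 0.0511). That ATF4 average joins calls in opposite directions. ATF4 was called lower in 4 lines (RKO, DLD-1, H-23 and PANC-1) and higher in 2 (CAPAN-2 and RPMI). Its largest change was the rise in RPMI.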

How the data were processed

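Total RNA libraries were made with a stranded kit, per the labels' protocols. The deposited values are raw counts per gene. The submitters' processing notes name bcl2fastq 2.19, FastQC, Trimmomatic, HISAT2, DESeq2 and hg38. The counting program, the annotation and the use of strand are not given in the sources used here. From these counts, edgeR 4.0.16 (R 4.3.3) fitted each line's 6 libraries, with TMM scaling, its filterByExpr filter, a quasi-likelihood F test and Benjamini-Hochberg adjustment over the 14522 to 18042 genes tested, calling at 0.05. A fit of 48 libraries and 16 groups (22309 genes) gave averages, differences between lines and DMSO contrasts. Totals of 9116329 to 64369098 counts make low counts, such as those of MAP1LC3A and MAP1LC3B2, the least precise. Coordinates and exon lengths came from GENCODE 29 and start regions from RefSeq GRCh38.p14. Both fits were tested on simulated counts. DESeq2 1.42.0, limma 3.58.1 and other scalings, filters and left-out libraries were alternatives. Named genes were the 6 members, list genes behind counts of 5 or fewer or with the 2 largest and smallest average changes, and the 3 genes most like each member. Members, lists and motifs were chosen with earlier results of these data known. The listed antisense gene of GABARAPL1 was not analysed here.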

Additional observations from a re-analysis of the deposited data

Results flagged for a closer look

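The change with carfilzomib differed among the 8 lines for 5 of the 6 genes, by an F test of equal changes in edgeR's fit of 48 libraries, as it did for 67.7% of all genes. F was 333.7 for GABARAPL1 (adjusted p = 1.2e-31), 38.1 for MAP1LC3B (1.7e-15), 14.4 for GABARAPL2 (5.6e-09), 13.7 for GABARAP (1.1e-08) and 3.79 for MAP1LC3B2 (0.0048).

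Within a tumour type, the difference in log2 change for GABARAPL1 was 1.90 for CAPAN-2 minus PANC-1, 2.39 for H-1299 minus H-23 and 3.08 for RPMI minus H-929. For MAP1LC3B the same differences were 0.63, 0.72 and 1.33. GABARAPL2 differed by 0.39 for CAPAN-2 minus PANC-1 (edgeR adjusted p = 0.0022), a call that ended without the second (0.34) or the third (0.22) replicate of every group. GABARAP differed by -0.30 for H-1299 minus H-23 (edgeR adjusted p = 0.0345), a call that ended without any 1 replicate number (-0.25, -0.35 and -0.29).

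Myeloma minus carcinoma lines, the difference in log2 change was 1.76 for GABARAPL1, 0.67 for MAP1LC3B, 0.79 for MAP1LC3B2, -0.61 for GABARAP and -0.42 for GABARAPL2. No group held more than 3 libraries, too few for the check for outlying libraries.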

How the results depend on the processing

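The rises of GABARAPL1 in 6 lines and of MAP1LC3B in 6 lines kept their direction and call under every scaling, filter, tool and left-out library tried. Counts of members called higher became 1 in RKO, 2 in H-23 and 2 in PANC-1 in 1 fit of all 48 libraries, and 1 in DLD-1 with library totals as the scaling. Counts called lower became 1 in RKO with no filter and 1 in H-1299 with library totals. When single libraries were left out, the count called higher fell to 2 in H-23 without the first or the third DMSO or the second carfilzomib library, from 2 to 4 in all. It reached 1 in DLD-1 without the third DMSO library, from 0 to 1. In PANC-1 the call of GABARAPL2 ended without the first DMSO library. In CAPAN-2 a call of GABARAP was gained without the second DMSO library. The count called lower ran from 0 to 1 in RKO (first DMSO library) and in H-1299 (second DMSO library). With cell lines as units the averages were 1.75, 0.74 and 0.86 for GABARAPL1, MAP1LC3B and MAP1LC3B2, none called, where limma called 0 of 22309 genes (3600 at an unadjusted p under 0.05), and -0.075 and 0.064 for GABARAP and GABARAPL2.

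The GABARAP average was not called with DESeq2 size factors (-0.056), library totals (-0.039), or without H-1299 (-0.061), H-929 (-0.015) or RPMI (-0.0036), and ran from -0.11 to -0.047 without 1 replicate number. The GABARAPL2 average was not called with no filter (0.051) or without DLD-1 (0.053), H-23 (0.059), PANC-1 (0.045) or CAPAN-2 (-0.0099, the opposite sign), and ran from 0.042 to 0.077 without 1 replicate number. The difference among lines of MAP1LC3B2 had F between 1.79 and 3.49 without 1 replicate number.

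Apart from the GABARAPL2 average, signs turned only in changes and differences that were not called. With library totals GABARAPL2 was 0.037 in RKO and -0.011 in H-1299, and MAP1LC3A was -0.074 in H-1299. In the fit of 48 libraries MAP1LC3A was -0.033 in H-1299, GABARAP -0.0048 in DLD-1 and GABARAPL2 -0.16 in H-929, the last being -0.077 with no filter. GABARAPL2 for H-1299 minus H-23 was 0.0028 with no filter.
Without 1 library, uncalled changes ran from -0.056 to 0.064 (GABARAPL2, RKO), -0.056 to 0.057 (GABARAP, DLD-1), -0.29 to 0.024 (MAP1LC3B, DLD-1), -0.032 to 0.13 (MAP1LC3A, H-1299) and -0.094 to 0.037 (GABARAPL2, H-929). Without 1 replicate number, differences ran from -0.56 to 0.68 (MAP1LC3A) and -0.25 to 0.089 (MAP1LC3B) for RKO minus DLD-1, -0.054 to 0.22 (MAP1LC3A) and -0.13 to 0.46 (MAP1LC3B2) for H-1299 minus H-23, and -0.15 to 0.093 (GABARAP) for CAPAN-2 minus PANC-1. They ran from -0.16 to 0.038 (GABARAP) and -0.48 to 0.91 (MAP1LC3A) for RPMI minus H-929, and -0.18 to 1.02 (MAP1LC3A) for myeloma minus carcinoma.

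Same-numbered libraries did not deviate together: 1 of 24 correlations of their deviations was over 0.1 (-0.20 to 0.20), and 9 of 24 libraries correlated best with their own number. With a replicate block, the GABARAPL2 average was 0.064 (edgeR adjusted p = 0.0651) and MAP1LC3B2 in H-23 was 0.77 (0.0607), and no other call changed.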
